A study of Mus musculus with 8 samples.

Results

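Mitochondrial biogenesis is directed by a small group of nuclear genes, and 8 of them were followed here in hematopoietic stem cells (HSCs) with and without Mitol: the coactivators Ppargc1b and Pprc1, the transcription factors Nrf1, Esrra and Yy1, the GABP subunits Gabpa and Gabpb1, and the mitochondrial DNA-binding factor Tfam. The members were listed by name for their role, with earlier results of these data known, and all 8 were found among the 22065 genes with a symbol in the count table. Expression was measured by RNA-seq of 100 sorted HSCs per library, from bone marrow of C57BL/6 mice aged 8 to 10 weeks, with 4 libraries for each genotype. Mitol Δ/Δ mice carried Mitol Flox/Flox and MX1-cre, and the controls were Mitol Flox/Flox mice without cre, so both groups carried the floxed alleles. Both groups had been injected with Poly:IC, a double-stranded RNA analogue that raises interferon and thereby turns on the Mx1 promoter of the cre transgene, and HSCs were taken 1 week later as Lineage-, CD150+, CD48-, EPCR+ cells. The Mx1 promoter is active in many interferon-responsive tissues, so that deletion need not have been limited to HSCs. The comparison addressed how the transcriptional regulators of mitochondria stood shortly after loss of MITOL, a ubiquitin ligase of the mitochondrial outer membrane.

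Mitochondria are built from proteins of nuclear genes and of the mitochondrial genome, and a coactivator and transcription factor circuit keeps both sets in step. Coactivators of the PGC-1 family bind no DNA themselves but dock on NRF1, GABP, ERRα and YY1, which bind promoters of respiratory chain genes, while TFAM packages mitochondrial DNA and starts its transcription. Quiescent HSCs are known for relying little on oxidative phosphorylation, and leaving quiescence is known to go with a higher mitochondrial activity.

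Promoters of 7 of the 8 genes were searched for recognition letters of the same factors, and the 3 that held any are shown, since each match lay close to the transcription start. Core letters were searched on both strands in the RefSeq promoter windows of GRCm38.p6, which run from 250 bases before to 50 bases after a start. The letters were GCATGCGC for NRF1, CCGGAAG for GABP, AAGATGG for YY1 and AAGGTCA for ERRα, and none of these strings contains another. Of 27025 genes with a window, 3.05% held the NRF1 letters, 9.93% the GABP letters, 7.28% the YY1 letters and 5.38% the ERRα letters. A window was used for 7 of the 8 members, that of Ppargc1b being not used here. The GABP letters stood in Gabpa and Tfam, the YY1 letters in Gabpa and the NRF1 letters in Esrra, and no letters searched were found in the windows of Pprc1, Nrf1, Gabpb1 and Yy1. The 100 bases before the start are given 5′ to 3′ on the gene's strand, with matched letters in capitals, as they read on that strand. Gabpa lies on the plus strand at chr16:84835024-84835123, with the GABP letters in reverse orientation 93 bases before the start and the YY1 letters in reverse 66 bases before it. Tfam lies on the minus strand at chr10:71238045-71238144, with the GABP letters 47 bases before the start. Esrra lies on the minus strand at chr19:6921809-6921908, with the NRF1 letters 34 bases before the start.
Gabpa: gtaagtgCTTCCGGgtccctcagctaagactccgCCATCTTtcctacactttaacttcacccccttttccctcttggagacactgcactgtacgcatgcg
Tfam: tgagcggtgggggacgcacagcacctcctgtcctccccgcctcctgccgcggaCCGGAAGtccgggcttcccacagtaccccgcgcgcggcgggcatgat
Esrra: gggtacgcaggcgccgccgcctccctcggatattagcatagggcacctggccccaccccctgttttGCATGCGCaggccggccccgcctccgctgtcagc

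The libraries held 7214935 to 12398138 counts on named genes, and raw counts of the 8 members ran from 199 (Esrra in control library 1) to 2771 (Pprc1 in Mitol Δ/Δ library 3), so that each member was well above the filter on low counts. Marchf5, the gene of MITOL, had 276, 232, 308 and 281 normalized counts across Mitol Δ/Δ libraries 1 to 4 and 299, 312, 333 and 262 in the controls. Its log2 fold change was -0.15 (adjusted p = 0.498, edgeR), and a count over the whole gene does not show whether the floxed part was removed, so the groups are those of the labels. All 8 HSC markers of the gate and of HSC identity were detected in every library, with a summed level of 24924 to 28749 in Mitol Δ/Δ and 36628 to 43923 in controls. Among all genes, edgeR's quasi-likelihood test placed 770 above and 616 below their control level after Mitol deletion, and upper-quartile scaling turned this split to 594 and 845.

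Of the 8 regulators, Pprc1 had the largest log2 fold change in size. Pprc1 encodes the PGC-1-related coactivator, known as the growth-responsive member of the family. It had 2160.2, 2778, 2537 and 1932 normalized counts (counts divided by the library's DESeq2 size factor) in Mitol Δ/Δ libraries 1 to 4 and 2057, 1678, 1691 and 1303 in control libraries 1 to 4. Thus 3 of the 4 Mitol Δ/Δ libraries lay above every control library, and Mitol Δ/Δ library 4 lay below control library 1. The means were 2352 ± 378 and 1682 ± 308 (SD, n = 4 each), a log2 fold change of 0.47 with a 95% interval of 0.16 to 0.77. The adjusted p was 0.0604 in edgeR's quasi-likelihood F test, with Benjamini-Hochberg adjustment over 16444 genes, which missed the threshold of 0.05, while DESeq2 gave 0.0186. Without Mitol Δ/Δ library 4 the edgeR value passed (log2 fold change 0.57, adjusted p = 0.0164), as it did without control library 1 (0.59, adjusted p = 0.0348), and in the other 6 analyses that left out a library it did not, with adjusted p from 0.0905 to 0.160. Reads of the overlapping gene Ldb1 on the opposite strand could not be told apart from Pprc1 reads at the shared bases, since the library kit did not mark strand.

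Ppargc1b, which encodes PGC-1β, an oxidative coactivator for ERRα, had 318, 437, 257 and 274 normalized counts across Mitol Δ/Δ libraries and 352, 330, 195 and 191 in control libraries. The groups overlapped, and control libraries 1 and 2 lay above every Mitol Δ/Δ library except that numbered 2. With a log2 fold change of 0.25 and a 95% interval of -0.24 to 0.75 (edgeR adjusted p = 0.512), changes in either direction were within the range these libraries allow. It was 0.078 without Mitol Δ/Δ library 2, 0.13 without control library 3, 0.12 without control library 4 and 0.43 without control library 1. The spread between libraries of Ppargc1b was the widest of the 8 members, with a coefficient of variation of 25.3% in Mitol Δ/Δ and 32.1% in controls.

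Of the DNA-binding factors that the coactivators dock on, Nrf1 and Esrra showed small differences. Nrf1, whose product binds promoters of cytochrome c and many other respiratory genes, had 1201, 1146, 1158 and 1075 normalized counts across Mitol Δ/Δ and 957, 1098, 1093 and 951 in control libraries. Mitol Δ/Δ library 4 alone fell within the control range. The log2 fold change of Nrf1 was 0.14 (95% interval -0.048 to 0.33, edgeR adjusted p = 0.325), and the exact permutation test over the 70 arrangements of the libraries gave p = 0.0857, 2-sided. Esrra, the gene of the orphan nuclear receptor ERRα, had 246, 225, 270.05 and 284 normalized counts across Mitol Δ/Δ and 262, 265, 257 and 279 in control libraries. Its Mitol Δ/Δ libraries lay on both sides of the controls. Esrra was the only member with a log2 fold change below 0 in the edgeR analysis of all 8 libraries (-0.072, 95% interval -0.34 to 0.20, adjusted p = 0.756), and the value ran from -0.11 to -0.011 when a library was left out. At the shared bases, reads of Esrra could not be told apart from those of Trmt112, which overlaps it on the opposite strand.

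GABP, also called NRF2, is a complex of a DNA-binding α subunit and a β subunit that carries the activation domain. Gabpa and Gabpb1, but not the other β subunit gene Gabpb2, lay higher in every Mitol Δ/Δ library than in any control library. So did 8.17% of all tested genes. For Gabpa the normalized counts were 532, 549, 517 and 475 in Mitol Δ/Δ and 433, 404, 441 and 322 in control libraries. Mitol Δ/Δ library 4, the lowest of its group, stood above control library 3, the highest of the controls, and control library 4 was lower than the other 3. Gabpa means were 518 ± 31.6 and 400.04 ± 54.1 (SD, n = 4 each), and the log2 fold change was 0.36 with a 95% interval of 0.099 to 0.61. edgeR's adjusted p of 0.0803 for Gabpa missed the threshold and DESeq2's of 0.0372 did not, and without Mitol Δ/Δ library 4 the edgeR value was 0.0460. In the other 7 analyses that left out a library it missed the threshold, with adjusted p from 0.0780 to 0.185 and the lowest log2 fold change, 0.27, without control library 4. Gabpa shares bases with Atp5pf on the opposite strand.

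Gabpb1 had 702, 650.5, 655 and 615 normalized counts across Mitol Δ/Δ and 568, 533, 602 and 614 in control libraries. Its groups were separated by less than 1 count, between Mitol Δ/Δ library 4 and control library 4, and it overlaps Gm27003 on the opposite strand. The log2 fold change was 0.16 (95% interval -0.046 to 0.37, edgeR adjusted p = 0.307). For Gabpa and Gabpb1 alike the exact permutation test gave p = 0.0286, the smallest that 4 against 4 libraries allow. Every gene whose groups do not overlap gets this value, and 15.4% of all tested genes had such groups in either direction. The other β subunit gene, Gabpb2, which is no member, had 1698 to 2221 normalized counts across Mitol Δ/Δ and 1610 to 2135 in the controls, and its log2 fold change was 0.0010 (95% interval -0.23 to 0.24, edgeR adjusted p = 0.996). That value turned below 0 with upper-quartile scaling (-0.064) and limma-voom (-0.00054).

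Tfam, the packaging and transcription factor of mitochondrial DNA, had a wider spread among Mitol Δ/Δ than among control libraries. It had 276, 376, 297 and 213 normalized counts across Mitol Δ/Δ libraries and 297, 270.3, 286 and 285 in control libraries. The highest and the lowest of the 8 values were both from Mitol Δ/Δ HSCs, in libraries 2 and 4, and all controls lay between them. The coefficient of variation was 23.2% in Mitol Δ/Δ and 3.83% in controls, a difference in spread that was not tested. The log2 fold change of Tfam was 0.0099 (95% interval -0.33 to 0.35, edgeR adjusted p = 0.979), and its sign turned with upper-quartile scaling (-0.054), with limma-voom (-0.016) and with the replicate number as a block (-0.016).

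Yy1 encodes a zinc finger factor that binds PGC-1 coactivators as well as many promoters outside the mitochondrial program. Its normalized counts were 1937, 1797, 1850.05 and 1770.05 in Mitol Δ/Δ and 1423, 1667, 1653 and 1760.1 in control libraries. The groups did not overlap, with control library 1 lowest and control library 4 only just under the lowest Mitol Δ/Δ library. The log2 fold change of Yy1 was 0.16 (95% interval -0.030 to 0.35), with an edgeR adjusted p of 0.269 and an exact permutation p of 0.0286.

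**Figure D1:**
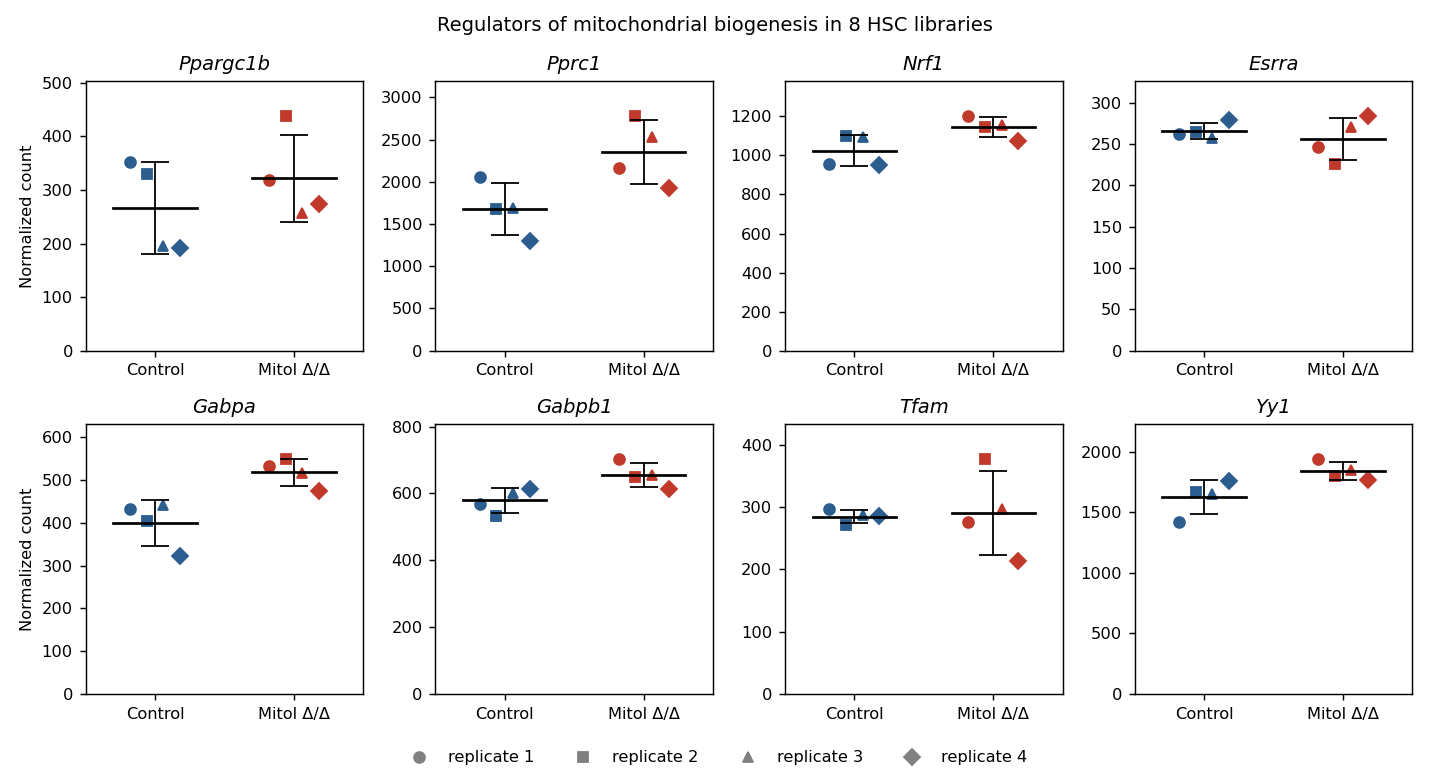
Normalized count (linear axis from 0) of each of the 8 regulators in the 4 control (blue) and 4 Mitol Δ/Δ (red) libraries; marker shapes give the replicate number, horizontal bars the mean and error bars the SD. Gabpa, Gabpb1 and Yy1 show groups that do not overlap, Pprc1 has 3 Mitol Δ/Δ libraries above all controls, and Tfam spreads from 213 to 376 in Mitol Δ/Δ HSCs around controls between 270.3 and 297.

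Across the 8 regulators, 0 passed edgeR's threshold, against 8.43% of the 16444 genes tested (4.68% higher and 3.75% lower). At an unadjusted p under 0.05, 2 of 8 were called (Pprc1 and Gabpa) against 26.4% of all genes, DESeq2 called the same 2 higher against 8.19% of its 16488 genes, and limma-voom called 0 against 8.35%. With groups that do not overlap, 3 of 8 members were higher and 0 lower, against 8.17% and 7.18% of all tested genes. The log2 fold change was above 0 in 7 of 8 members, with a median of 0.16, while 47.7% of all tested genes were above 0 and their median was -0.020. The summed normalized count of the 8 genes was 6637 to 7959 in Mitol Δ/Δ and 5706 to 6350 in control libraries, ranges that did not overlap. Mitol Δ/Δ library 4 was the lowest of its group in the sum and in Pprc1, Nrf1, Gabpa, Gabpb1, Tfam and Yy1. Biological coefficients of variation fitted by edgeR were 0.102 for Nrf1 and for Yy1, 0.108 for Gabpb1 and 0.229 for Ppargc1b, and 7 of the 8 members lay under the median of 0.190 over all genes.

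**Figure D2:**
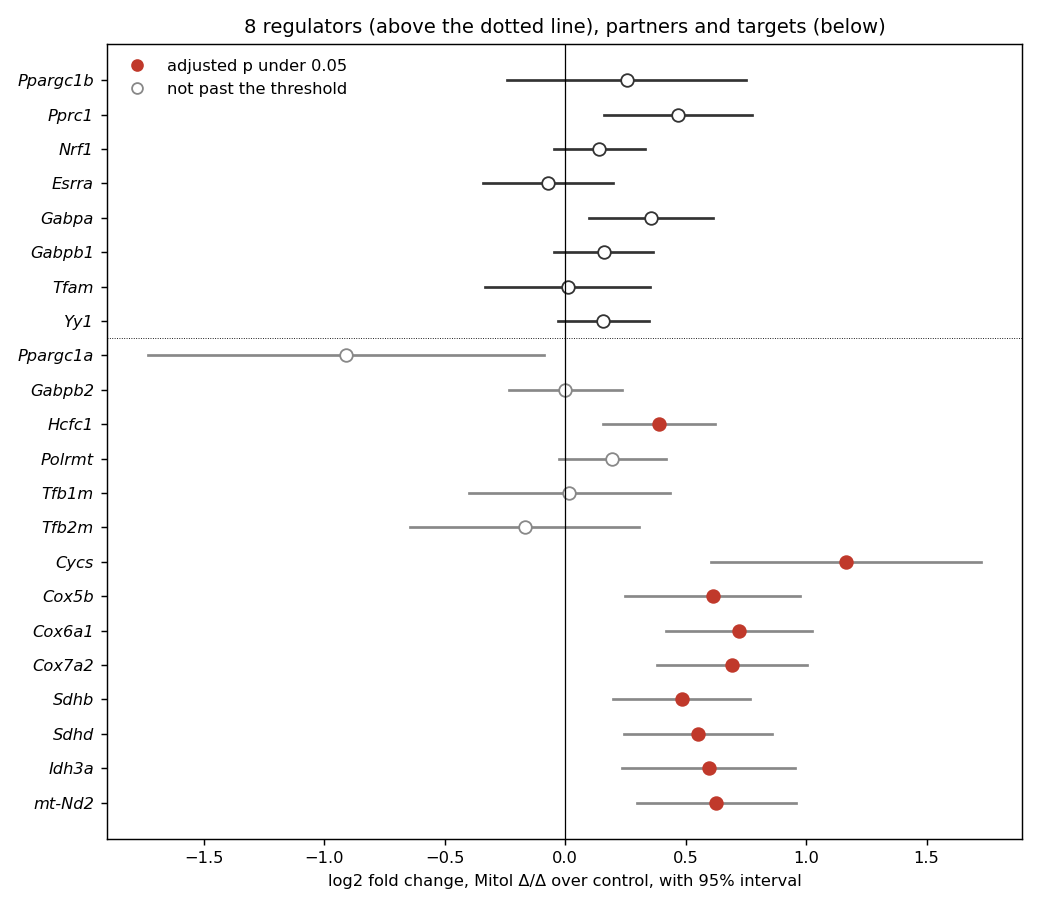
Log2 fold change of Mitol Δ/Δ over control (points) with 95% interval (lines) for the 8 regulators above the dotted line and for partners and targets below it; filled red points had an edgeR adjusted p under 0.05. The intervals of Pprc1 (0.16 to 0.77) and Gabpa (0.099 to 0.61) lie above 0 without passing the adjusted threshold, and those of the other 6 regulators include 0.

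Levels of different genes were set side by side as normalized counts per kb of exon, using the union of annotated exons of GENCODE vM39 on GRCm39. Pprc1 (chr19:46033325-46061354) was highest in control HSCs with 266 ± 48.7 per kb (SD, n = 4), and Yy1 (chr12:108758842-108786074) followed with 224 ± 19.8 per kb. Their control libraries overlapped, so that the order of Pprc1 and Yy1 was not resolved. Nrf1 (chr6:30047892-30153462) stood apart from both neighbours in this order with 94.3 ± 7.50 per kb. Next came Gabpb1 (chr2:126469361-126518282) with 63.2 ± 3.98 per kb and Tfam (chr10:71061287-71074110) with 60.5 ± 2.31 per kb, which overlapped each other. Esrra (chr19:6888338-6899336) had 53.3 ± 1.90 per kb, Gabpa (chr16:84631140-84660672) had 47.6 ± 6.43 per kb and Ppargc1b had 46.2 ± 14.9 per kb. Esrra overlapped Gabpa and Gabpa overlapped Ppargc1b, while Tfam and Esrra did not overlap. With the longest transcript in place of the exon union, Pprc1, Yy1, Nrf1 and Gabpb1 kept ranks 1 to 4, Esrra moved to rank 5, Tfam to 6, Ppargc1b to 7 and Gabpa to 8.

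**Figure D3:**
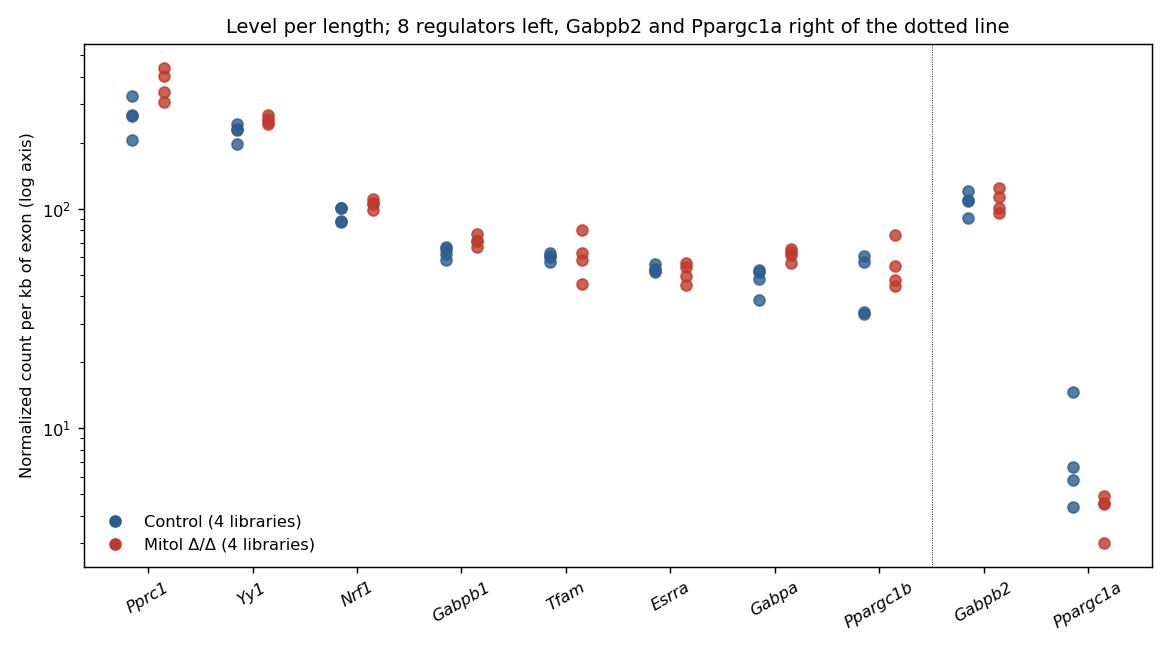
Normalized count per kb of exon (log axis) in each control (blue) and Mitol Δ/Δ (red) library, for the 8 regulators in the order of their control means and, right of the dotted line, Gabpb2 and Ppargc1a. Pprc1 and Yy1 lie above 190 per kb in every library, the other 6 regulators lie near or below 110 per kb, and Ppargc1a lies between 3.00 and 14.6 per kb.

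The third PGC-1 gene, Ppargc1a, which encodes PGC-1α and is no member, had few counts in these HSCs. Normalized counts were 32.1, 32.2, 34.8 and 21.2 in Mitol Δ/Δ and 40.9, 30.9, 47.1 and 103 in control libraries. Control library 4 stood far above the rest, and control library 2 lay within the Mitol Δ/Δ range. The log2 fold change of Ppargc1a was -0.91 (95% interval -1.73 to -0.088, edgeR adjusted p = 0.149) and -0.41 without control library 4. As a share of the summed level per kb of the PGC-1 genes, Pprc1 made up 86.1% ± 1.99 in Mitol Δ/Δ and 83.0% ± 2.68 in controls (SD, n = 4 each), and Ppargc1b 12.9% ± 2.06 and 14.3% ± 2.85. Ppargc1a made up 0.842 to 1.13% in Mitol Δ/Δ libraries, 1.34 to 2.17% in control libraries 1 to 3 and 5.77% in control library 4. Among the GABP genes, Gabpa made up 25.5% ± 1.10 of the summed level per kb in Mitol Δ/Δ and 21.9% ± 3.49 in controls, Gabpb1 29.6% ± 1.11 and 29.0% ± 1.44, and Gabpb2 44.8% ± 1.82 and 49.1% ± 3.77, and each of these shares overlapped between groups.

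The genes most like Pprc1 over the 8 libraries, out of 12005 with at least 50 mean normalized counts, were Dhx29 and Bud23. Pearson's r of log2(normalized count + 1) was 0.990 for Dhx29 and 0.987 for Bud23 (n = 8 libraries of both groups, a description that includes the difference between the groups), and Spearman's rho was 1 for both. Within Mitol Δ/Δ libraries r was 0.999 for Dhx29 and 0.984 for Bud23 (n = 4), and within controls 0.994 and 0.969 (n = 4). Both genes were picked for the highest r over these same libraries, so the rho and within-group values add little to it. Dhx29 had a log2 fold change of 0.40 (edgeR adjusted p = 0.149) and Bud23 of 0.51 (adjusted p = 0.0527), so neither passed the threshold.

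The genes around the 8 regulators were described by role. Of 28 other coactivators, nuclear receptors and factors of the circuit, 23 passed the filter on low counts, at a median log2 fold change of 0.0013. Of these 23, Hcfc1 alone passed edgeR's threshold, against 4.68% of all tested genes higher and 3.75% lower. Hcfc1 encodes host cell factor C1, a cofactor for GABP and PGC-1 proteins. Its normalized counts were 8660, 8566, 6575 and 6587 in Mitol Δ/Δ and 6015, 5897, 5943 and 5040 in control libraries (log2 fold change 0.39 ± 0.11 SE, edgeR adjusted p = 0.0446). All Mitol Δ/Δ libraries were higher, those numbered 1 and 2 most, and control library 4 was the lowest. The Hcfc1 call held in 1 of the 8 analyses that left out a library, the one without Mitol Δ/Δ library 4, where the adjusted p was 0.0127, and the adjusted p rose to at most 0.122 in the others. In the other direction, 3 partners were lower without overlap between the groups, against 7.18% of all tested genes, and they are named after their values were seen: the nuclear receptor coactivators Ncoa1 and Ncoa2 and the factor Mef2d. Ncoa2 had 3211, 3500, 3192 and 3645 normalized counts with Mitol deleted and 3987, 3944, 3973 and 4028 in controls, a log2 fold change of -0.25. Its adjusted p was 0.0566 with edgeR, 0.0254 with DESeq2 and 0.0438 with limma-voom. Ncoa1 (-0.23, edgeR adjusted p = 0.132) and Mef2d (-0.24, 0.0825) passed with none of these tools. The Hcfc1 promoter held the GABP letters 86 bases before the start, and the YY1 letters 168 bases before and 24 bases after it, outside the stretch shown.
Hcfc1, minus strand, chrX:73966358-73966457: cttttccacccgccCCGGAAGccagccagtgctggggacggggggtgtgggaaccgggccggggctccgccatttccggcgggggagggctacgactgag
Of named partners not past the threshold, Myc, a driver of biosynthesis, had a log2 fold change of -0.22 (edgeR adjusted p = 0.367; -0.30 to -0.051 with a library left out) and Nrip1, a corepressor of nuclear receptors, one of 0.0013 (adjusted p = 0.996) that turned below 0 with upper-quartile scaling (-0.058).

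Among 17 energy and nutrient sensors that act on PGC-1 proteins, such as AMP kinase subunits, edgeR called 0 in either direction, against 8.43% of all tested genes. DESeq2 also called 0 in either direction, against 8.19% of its genes in the higher direction alone. An unadjusted edgeR p under 0.05 was found for 1 of the 17, against 26.4% of all tested genes. The median log2 fold change of the 17 sensors was -0.017. Prkaa1, the catalytic α1 subunit gene of AMP kinase, had 0.23 (edgeR adjusted p = 0.232), and Sirt1, a deacetylase of PGC-1α, had -0.013 (adjusted p = 0.966), a value that changed sign without the filter on low counts (0.0098).

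Downstream of TFAM, 14 of 16 genes of mitochondrial DNA transcription and replication were tested. Of these 14, 0 were called by edgeR, against 8.43% of all tested genes in either direction. DESeq2 called 0 as well, against 8.19% of its genes in the higher direction alone. In a list this short, 0 calls carry little weight. An unadjusted edgeR p under 0.05 was found for 0 of the 14, against 26.4% of all tested genes. The median log2 fold change of the 14 genes was 0.027. Polrmt, the mitochondrial RNA polymerase, had 0.20 (edgeR adjusted p = 0.244), Tfb2m, its initiation factor, -0.17 (adjusted p = 0.666), and Tfb1m, a ribosomal RNA methyltransferase, 0.017 (adjusted p = 0.969), the last turning to -0.047 with upper-quartile scaling. Promoter windows were found for 14 of the 16 genes, Mterf1a and Mterf1b included, which were under the filter on low counts, and 9 of these 14 genes held the GABP letters, Polrmt among them, against 9.93% of all genes. Of the 13 mitochondrially encoded mRNAs, 7 were in the table. All 7 had a log2 fold change above 0, against 47.7% of all tested genes, with a median of 0.26. Their summed normalized count was 22329 to 35418 in Mitol Δ/Δ and 19973 to 27448 in control libraries. Mitol Δ/Δ libraries 3 and 4, at 24013 and 22329, lay within the control range of this sum. Groups did not overlap for 1 of the 7, against 8.17% of all tested genes higher. Only mt-Nd2, a complex I subunit, passed edgeR's threshold (0.63, adjusted p = 0.0288), against 4.68% of all tested genes higher. mt-Nd2 had 1125, 1150.3, 818 and 731 normalized counts across Mitol Δ/Δ and 591, 569, 557 and 724 in control libraries, so that Mitol Δ/Δ library 4 and control library 4 nearly met. The mt-Nd2 call was kept without Mitol Δ/Δ libraries 3 or 4 or control library 4 and lost in the other 5 such analyses (adjusted p up to 0.0846).

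**Figure D4:**
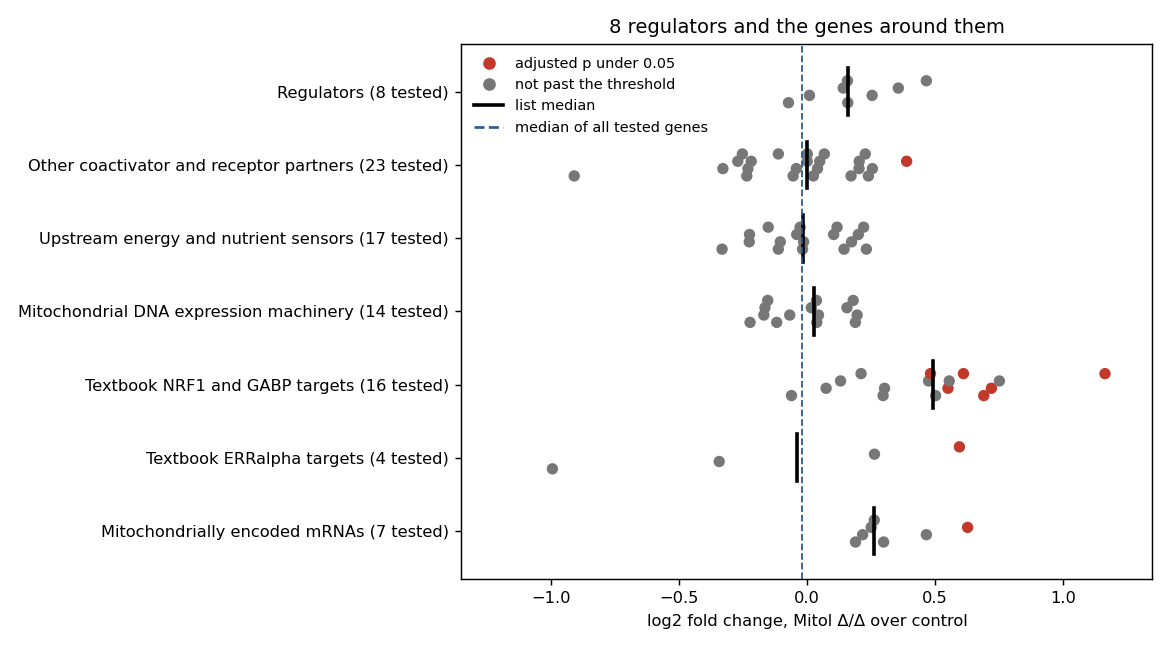
Log2 fold change of Mitol Δ/Δ over control for the tested genes of each list (1 point a gene; red, edgeR adjusted p under 0.05), with the list median (black bar) and the median of all tested genes (-0.020, dashed line). Of the 7 lists drawn, the NRF1 and GABP targets have the highest median (0.49), the regulators lie at 0.16, and the sensors (-0.017) and the mitochondrial DNA machinery (0.027) lie close to the dashed line.

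The last group downstream of the regulators was the nuclear genes, mostly of the respiratory chain, that textbooks assign to NRF1 and GABP. Of 16 such genes, 6 rose and 0 fell by edgeR's test, against 4.68% and 3.75% of all genes. DESeq2 called 10 of the 16 higher, against 8.19% of its genes. The log2 fold change was above 0 in 15, against 47.7% of all tested genes, with a median of 0.49. Cycs, the gene of somatic cytochrome c, had 205, 179, 134 and 85.7 normalized counts across Mitol Δ/Δ and 67.3, 55.3, 78.2 and 64.7 in control libraries. Each Mitol Δ/Δ library exceeded each control, library 4 by the least. Cycs rose by 1.16 on the log2 scale (SE 0.26, edgeR adjusted p = 0.0217). Cox6a1, a cytochrome c oxidase subunit, had 1508, 1466, 1226 and 986 in Mitol Δ/Δ and 892, 841, 722 and 656 in control libraries, and it rose by 0.72 (SE 0.14, adjusted p = 0.0148). The other called targets were the oxidase subunits Cox7a2 (log2 fold change 0.69, adjusted p = 0.0177) and Cox5b (0.61, 0.0442) and the succinate dehydrogenase subunits Sdhd (0.55, 0.0346) and Sdhb (0.48, 0.0423). All 6 had groups that did not overlap, as had 8.17% of all tested genes in the higher direction. Because the 6 were called on these same libraries, such separation adds little to the calls.

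Most of these target calls were lost in some analyses that left out a library, as were calls over all genes, of which 167 to 1482 were higher in such analyses against 770 with all libraries. The log2 fold changes stayed above 0 throughout, from 0.46 to 0.74 for Cox5b, 0.39 to 0.57 for Sdhb and 0.46 to 0.68 for Sdhd. Cox6a1 stayed past the edgeR threshold in all 8 analyses that left out a library and Cox7a2 in 7, being lost without control library 2 (adjusted p = 0.0604). Cycs passed in 4 of the 8 and was lost without Mitol Δ/Δ libraries 1 or 2 and without control libraries 2 or 4 (adjusted p up to 0.0692). Sdhb and Sdhd passed in 2, those without Mitol Δ/Δ library 4 or control library 1, with adjusted p up to 0.118 and 0.0971 in the others, and Cox5b passed only without Mitol Δ/Δ library 4, with up to 0.123 in the others. With all libraries, Cox5b missed the threshold with limma-voom (adjusted p = 0.0606), with the replicate block in edgeR (0.0632) and with upper-quartile scaling (0.0578), and Sdhb with upper-quartile scaling (0.0534). The number of the 16 targets called higher was 2 without Mitol Δ/Δ library 1, 2 without library 2, 3 without library 3 and 9 without library 4, and it was 8, 1, 3 and 2 without control libraries 1, 2, 3 and 4. Upper-quartile scaling left 4 calls.

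Of the called targets with NRF1 or GABP letters within the 100 bases before the start, 3 are shown. They can be set beside Gabpa, Tfam and Esrra above. The called target Cox6a1, not shown, also had such letters, those of GABP in reverse 16 bases before the start. Of the 16 targets, 13 had a window. The NRF1 letters stood in Cycs, Cox6a1, Sdhb and Alas1, against 3.05% of all genes with a window. The GABP letters stood in Cox6a1, Cox6b1, Cox8a, Sdhb and Sdhd, against 9.93%. Of the 7 genes with either string, 4 were called higher, and the called genes Cox5b and Cox7a2 had windows without them. In Cycs (minus strand, chr6:50566570-50566669) the NRF1 letters lay 60 bases and in Sdhb (plus strand, chr4:140961171-140961270) 54 bases before the start. In Sdhd (minus strand, chr9:50603850-50603949) the GABP letters lay in reverse 46 bases before it.
Cycs: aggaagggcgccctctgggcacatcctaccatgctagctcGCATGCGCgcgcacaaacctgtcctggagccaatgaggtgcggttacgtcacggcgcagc
Sdhb: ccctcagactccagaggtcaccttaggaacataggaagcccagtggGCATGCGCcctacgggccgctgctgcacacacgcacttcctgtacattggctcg
Sdhd: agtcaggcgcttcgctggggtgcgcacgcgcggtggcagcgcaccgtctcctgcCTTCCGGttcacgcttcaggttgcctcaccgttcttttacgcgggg

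Of 5 textbook ERRα targets, 4 were tested and edgeR called 1, against 8.43% of all tested genes. Idh3a, a subunit of isocitrate dehydrogenase of the tricarboxylic acid cycle, had 676, 769, 635 and 500.4 normalized counts across Mitol Δ/Δ and 528, 375, 465 and 322 in control libraries. It rose by 0.60 on the log2 scale (edgeR adjusted p = 0.0452), although Mitol Δ/Δ library 4 lay below control library 1. The median of the 4 tested genes was -0.040, so the list had no common direction. The Idh3a call was kept without Mitol Δ/Δ library 4 and without control library 1, and it was lost in the other 6 such analyses, where the adjusted p reached 0.125.

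Markers of other states and cell types also differed between the groups, in different orders of the libraries. The 8 proliferation markers had a summed normalized count of 17744, 17571, 12724 and 8152 in Mitol Δ/Δ libraries 1 to 4 and of 6611, 6095, 8206 and 5605 in controls. Of the 8, 5 rose by edgeR's test (Mki67, Top2a, Ccnb1, Cdk1 and Rrm2), against 4.68% of all tested genes. The summed NRF1 and GABP targets had 9364, 9301, 8043 and 7176 in Mitol Δ/Δ libraries 1 to 4, against 5323 to 7052 in controls. Libraries 1 and 2 differed little in both sums, so their order carries little weight. The summed 8 regulators had 7371, 7959, 7541 and 6637 in the same libraries. Erythroid markers summed to 1065, 1117, 3623 and 1871 in Mitol Δ/Δ libraries and 463 to 895 in controls, with Mitol Δ/Δ library 3 highest. That library was neither the highest nor the lowest of its group in any of the 8 regulators except Ppargc1b, where it was the lowest. Sums ran from 16.9 to 36.6 against 50.1 to 88.9 for neutrophil markers and from 2381 to 5085 against 3143 to 4827 for megakaryocyte markers, in Mitol Δ/Δ and control HSCs respectively. The megakaryocyte sum was mostly Vwf (2006 to 3442 against 2427 to 4059) and hid other members. Pf4 was lower without overlap (log2 fold change -1.69, edgeR adjusted p = 0.0202). Itga2b, the only 1 of the 4 tested with a log2 fold change above 0 (0.49, adjusted p = 0.476), ran from 286 to 1440 against 519 to 589. Of B lineage markers, Cd79b alone passed the filter on low counts, with 122 to 147 against 129 to 194 normalized counts. Vpreb1, below the filter, went the other way (1.57 to 13.7 against 0 to 6.38). Of 5 T and NK markers, 2 were in the table, where Nkg7 had 203 to 302 against 92.5 to 156 and Cd3d, which defines T cells, 0 to 4.23 against 0 to 6.59 normalized counts. Of 4 mast cell and basophil markers, Cpa3 alone was in the table, at 7.32 to 13.8 against 11.3 to 21.1. Cd48, absent from the surface in the gate, had 22.2 to 63.4 against 4.49 to 21.7 normalized counts. The part of these markers in the values of the regulators and targets was not tested, and in RNA from pooled cells a change in the number of expressing cells and a change in RNA per cell cannot be told apart.

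**Figure D5:**
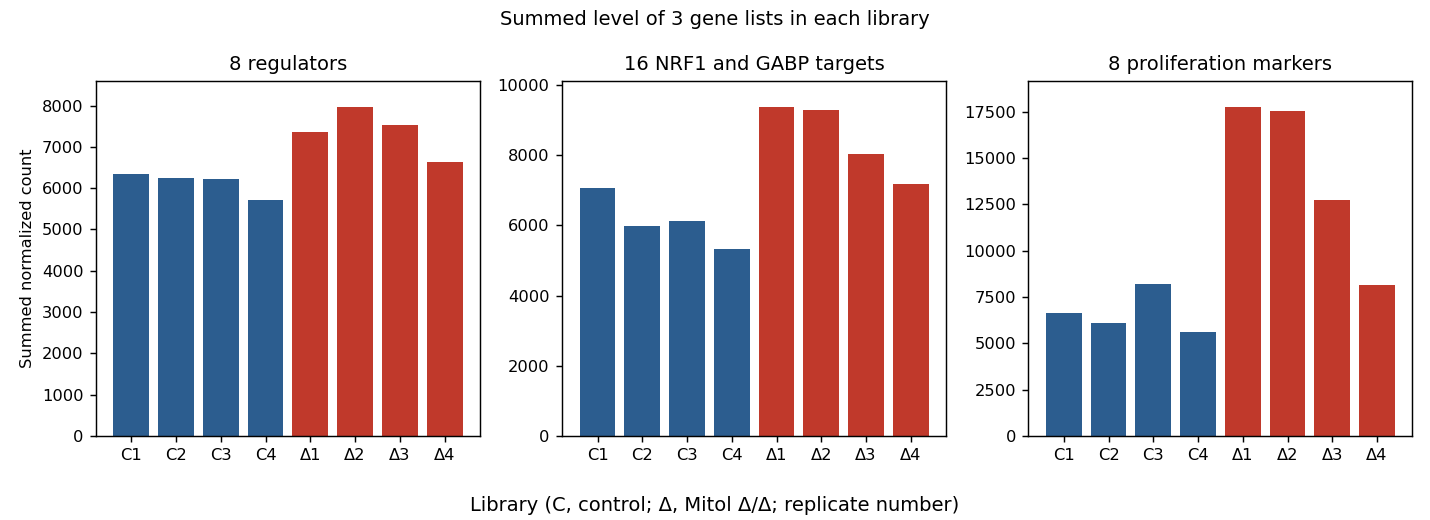
Summed normalized count in each library (C, control; Δ, Mitol Δ/Δ; numbers are replicates; bars start at 0) of the 8 regulators, the 16 NRF1 and GABP targets and the 8 proliferation markers. The regulators lie between 5706 and 7959 in all libraries, whereas proliferation markers reach 17744 in Mitol Δ/Δ library 1 and 8152 in library 4, close to the 8206 of control library 3.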

How the data were processed

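RNA-seq libraries were made with a kit that does not mark strand. According to the labels and the study's methods, the authors aligned reads to mm39 with STAR, handled them with SAMtools and counted them per gene with Subread; strand setting and annotation are not given in the sources used here. The deposited values are raw counts, and 1029 of 23094 rows without a symbol (0.335 to 0.467% of counts) were left out. Counts were tested with edgeR 4.0.16 (R 4.3.3; TMM, filterByExpr, quasi-likelihood F test, Benjamini-Hochberg, threshold 0.05, genotype as the only term), with DESeq2 1.42.0 and limma-voom 3.58.1 as alternatives, and single genes also by a 2-sided exact permutation test (70 arrangements). The fits were tested on simulated data. The labels number the replicates but do not say whether they were separate mice, so p-values measure the spread between these libraries. Every pair of libraries differed by more than sampling noise. Lengths came from GENCODE vM39 (21526 symbols matched) and promoters from RefSeq. Named were the 8 members, pathway genes past the threshold, a fixed set of partners and the 2 genes most like the member with the lowest p. Members, lists and tests were chosen with earlier results of these data known, and motif letters after longer strings had been looked at.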

Additional observations from a re-analysis of the deposited data

Results flagged for a closer look

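In 54 groups of 4 libraries (27 named genes in each genotype), 2 held a library standing apart from the other 3 by Dixon's criterion at the 95% level, and chance alone marks about 1 group in 20. Hcfc1, the cofactor of GABP and PGC-1 proteins, had 5040 normalized counts in control library 4 and 5897 to 6015 in the other controls. Nrip1, the nuclear receptor corepressor, had 3283 normalized counts in Mitol Δ/Δ library 4 and 2519 to 2597 in the other Mitol Δ/Δ libraries. Neither gene is among the 8 regulators, in none of which a library stood apart in this sense.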

How the results depend on the processing

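The 8 regulators kept the sign of their log2 fold change under other scalings, filters and tools, except Tfam, at -0.054 with upper-quartile scaling, -0.016 with limma-voom and -0.13 to 0.15 with a library left out. DESeq2 called 2 regulators, Pprc1 at 0.48 and Gabpa at 0.38, and 0 to 2 were called with a library left out, where Pprc1 ran from 0.36 to 0.59 and Gabpa from 0.27 to 0.42. In the same analyses Ppargc1b ran from 0.078 to 0.43, Nrf1 from 0.11 to 0.19, Gabpb1 from 0.12 to 0.21, Yy1 from 0.11 to 0.20 and Esrra from -0.11 to -0.011. Reversed values were also found for Gabpb2 (-0.064 with upper-quartile scaling, -0.00054 with limma-voom, -0.067 to 0.078 with a library left out), Tfb1m (-0.047 with upper-quartile scaling, -0.082 to 0.14), Sirt1 (0.0098 without the filter, 0.0050 with DESeq2, -0.050 to 0.089) and Nrip1 (-0.058 with upper-quartile scaling, -0.0077 with limma-voom, -0.078 to 0.045). Upper-quartile scaling moved the median of all genes to -0.082 and gave 5 pathway genes higher and 2 lower, against 9 and 0, and DESeq2 and limma-voom gave 1 lower each. With a library left out, 1 to 16 pathway genes were higher and 0 to 1 lower. DESeq2 called 1350 of all genes higher and 965 lower, and leaving out a library gave 167 to 1482 and 192 to 1019. With longest transcripts the ranks by level were 6 for Tfam, 5 for Esrra, 8 for Gabpa and 7 for Ppargc1b. The cause of these shifts was not tested.

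The labels do not say whether replicate numbers pair the libraries. Deviations of same-numbered libraries correlated at 0.080, -0.070, 0.053 and 0.067, and 2 of 4 numbers correlated best with their own. Values this weak over 4 numbers cannot decide whether the libraries were paired. With the replicate number as a block, 1 regulator was called (Pprc1, 0.47, adjusted p = 0.0313), Tfam was -0.016 and Nrip1 -0.0048. With 4 libraries a group, the 95% intervals of the regulators were narrowest for Yy1 (-0.030 to 0.35) and widest for Ppargc1b (-0.24 to 0.75), whose fitted coefficient of variation was also the highest (0.229).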
